A study of Rattus norvegicus with 12 samples.

Results

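The imprinted Dlk1-Dio3 domain carries a large miR cluster, and 10 of its miRs were followed here through all groups of a rat nerve injury study: miR-127, miR-323-3p, miR-379, miR-382, miR-411, miR-433, miR-434-3p, miR-487b, miR-495 and miR-667. They were chosen by name, not by their values, though earlier results of these data were known. All 10 were among the 154 miRs of the deposited table, where they carry the mouse prefix (mmu-miR-487b and mmu-miR-667, for example). That table also holds 15 other miRs of the cluster, which serve as a comparison below. Dorsal root ganglia (DRG), which house the cell bodies of sensory neurons, were taken on Day 23 from adult male Sprague-Dawley rats, and the RNA was run on TaqMan rodent miR cards. In the Sural-SNI the common peroneal and tibial branches of the sciatic nerve were tied and cut and the sural branch was spared. In the Tibial-SNI the common peroneal and sural branches were tied and cut and the tibial branch was spared. Sham rats had the same nerves laid open without any being tied or cut. Each of these 3 groups has 4 arrays, 2 of the L3-DRG and 2 of the L4-DRG, numbered replicate 1 and replicate 2. What a replicate number stands for is not given in the sources used here, so p-values measure the spread between these arrays only.

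Genes of this domain are expressed from only 1 parental chromosome. The maternal chromosome gives rise to long noncoding RNAs, among them Meg3, a transcript antisense to the paternal gene Rtl1, and Mirg, and the miRs are cut from these long transcripts, many hairpins from each. The cluster is known for its high expression in brain and other neural tissue, and in cultured neurons part of it responds to electrical activity, where miR-134 acts on the dendritic kinase Limk1. MiR-127 and its neighbors are cut from the RNA antisense to Rtl1 and, being fully complementary to it, direct cleavage of the Rtl1 message.

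The sequences below show that each member has its own seed although the members are neighbors. They are the rat mature miRs of RefSeq (build GRCr8), matched by name, all on the plus strand of chromosome 6 and listed in genome order, with the seed (bases 2 to 8) in capitals. Names without an arm were read as the arm that the older name stood for (for example miR-127 as miR-127-3p), since the files do not state the arm.
miR-433 (chr6:134327421-134327442): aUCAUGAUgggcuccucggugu
miR-127 (chr6:134328510-134328531): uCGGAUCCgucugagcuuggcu
miR-434-3p (chr6:134330451-134330472): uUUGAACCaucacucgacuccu
miR-379 (chr6:134543460-134543480): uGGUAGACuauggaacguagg
miR-411 (chr6:134544604-134544624): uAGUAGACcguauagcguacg
miR-323-3p (chr6:134546994-134547014): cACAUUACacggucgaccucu
miR-495 (chr6:134554103-134554124): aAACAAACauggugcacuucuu
miR-667 (chr6:134555392-134555413): uGACACCUgccacccagcccaa
miR-487b (chr6:134562939-134562960): aAUCGUACagggucauccacuu
miR-382 (chr6:134569956-134569977): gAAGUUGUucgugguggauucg
All 10 seeds differ, and no other rat mature miR of the table carries any of them. MiR-379 and miR-411, which stand side by side, differ at 7 of 21 bases counted from the 5′ end, of which G2A lies in the seed (miR-379 first). The first 3 miRs of the list belong to the RNA antisense to Rtl1 and lie within 3.052 kb, and the other 7 belong to Mirg and lie within 26.518 kb. A gap of 212.987 kb separates the last of the former, miR-434-3p, from the first of the latter, miR-379. The annotation places each in a miR gene, and the genes of 8 of the 10 have more than 1 mature sequence in the table.

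All 10 miRs were detected in all 12 arrays, which was the condition for any miR to be kept in the deposited table. A Ct is the cycle at which the signal crosses its threshold, so a low Ct means much RNA, and no member exceeded a Ct of 33.3 in any of the 12 arrays (range 24.9 to 33.3, 40 cycles run). Their mean Ct ran from 26.2 for miR-434-3p to 30.5 for miR-495, and 6 of the 10 lay below the median miR (29.2). In what follows the level of a miR is −ΔCt, the mean Ct of the reference assays MammU6, snoRNA135 and U87 minus the Ct of the miR, so that a step of 1 is a doubling. Levels of different assays are only roughly comparable, since assays can differ in efficiency. A ganglion is a mixture of cells, and fewer cells of a type and less RNA per cell cannot be told apart.

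In Sham DRG the order of the levels was miR-434-3p (−1.04 ± 0.27, mean ± SD, n = 4 here and below), miR-382 (−1.51 ± 0.60), miR-323-3p (−1.89 ± 0.23), miR-667 (−2.38 ± 1.18), miR-411 (−2.92 ± 0.18), miR-127 (−2.95 ± 1.30), miR-433 (−4.23 ± 0.80), miR-379 (−4.52 ± 0.83), miR-487b (−4.84 ± 0.26) and miR-495 (−5.53 ± 0.97). The ranges of every pair of neighbors in this order overlapped. Array by array, miR-434-3p was above miR-382 in 4 of 4 Sham arrays, and no other member was above the next in all 4. Among all 154 miRs the Sham levels ranked from 24 (miR-434-3p) to 110 (miR-495). MiR-434-3p, miR-127 and miR-433, from the RNA antisense to Rtl1, took the first, the sixth and the seventh place. The spread within Sham was uneven, with SDs from 0.18 for miR-411 to 1.30 for miR-127.

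**Figure D1:**
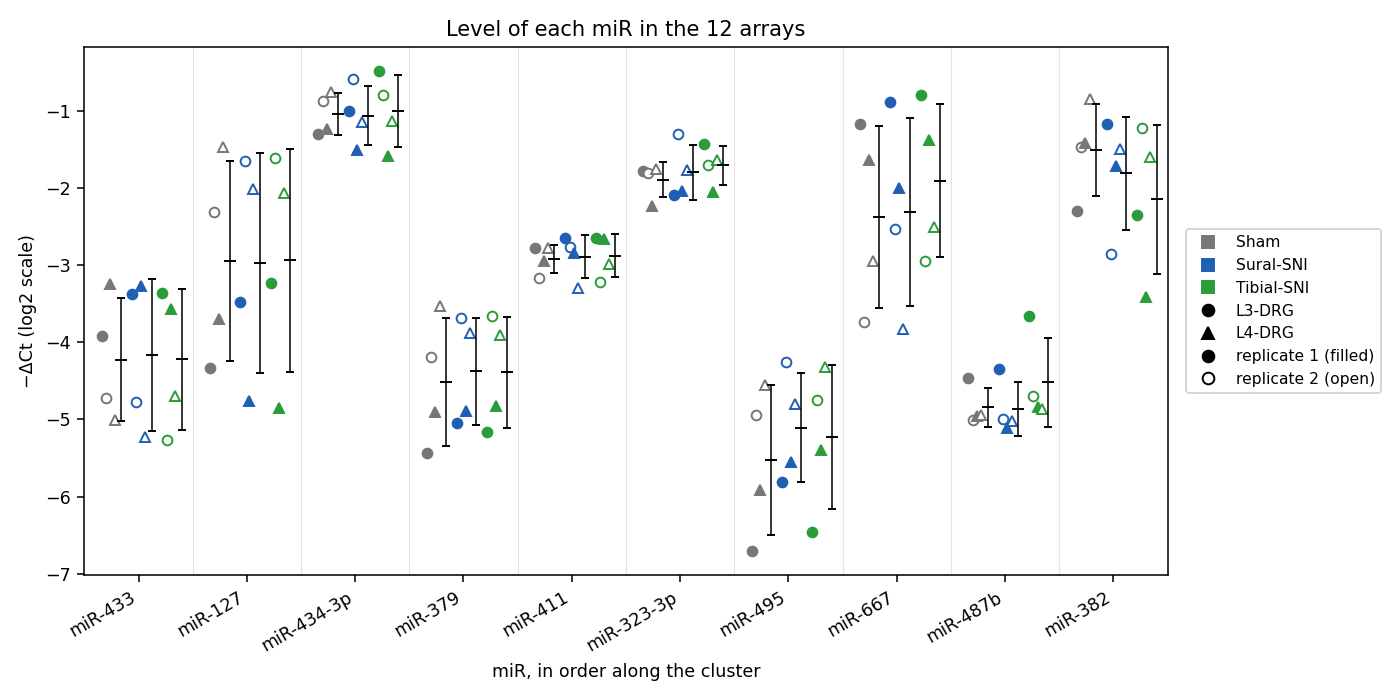
Level (−ΔCt, log2 scale, vertical axis) of the 10 miRs (horizontal axis, genome order) in the 12 arrays, with the mean and SD of each group of 4 beside its points; color gives the group, shape the DRG level and fill the replicate number. The ranges of the 3 groups overlap for each miR, and filled and open symbols separate completely for miR-127, miR-379, miR-433, miR-495 and miR-667.

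The largest differences in level among the arrays followed the replicate number. For miR-127 the replicate 1 arrays averaged −4.06 and the replicate 2 arrays −1.85, a shift of −2.20. MiR-495 shifted by −1.37 and miR-379 by −1.23. MiR-433 and miR-667 shifted the other way, by 1.50 and 1.77. In these 5 miRs no replicate 1 array overlapped a replicate 2 array, which was also the case for 61 of the 154 miRs (39.6%). The other 5 members shifted less, between −0.48 (miR-382) and 0.36 (miR-487b). From miR-127 to miR-667 the shifts spanned 3.97, and over all miRs they had a median of −0.52 and ran from −4.76 to 4.21. The 3 reference assays shift all miRs of an array by the same amount, so the gaps between these shifts do not depend on them.

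The study set the Tibial-SNI against the Sural-SNI to find miRs that differ between the 2 injuries. None of the 10 members had a limma p under 0.05, adjusted or not, and 1, miR-487b, passed the lenient one-tailed threshold of the study under some of the tests. The log2(fold change) of an SNI array is its −ΔCt minus that of the Sham array with its level and number. The difference, Tibial-SNI minus Sural-SNI, ran from −0.34 (miR-382) to 0.41 (miR-667), with a median of 0.02 over the members and 0.10 over all 154 miRs. In limma with Benjamini-Hochberg adjustment over all miRs, 0 of 10 members had an adjusted p under 0.05 (1 of 154 miRs, 0.649%), and 0 had an unadjusted p under 0.05 (4 of 154, 2.6%, or, with the replicate block described below, 0 members and 6 of 154, 3.9%). At the one-tailed threshold of the study, 0.09, applied in either direction, 0 members passed in limma (16 of 154, 10.4%). In the methods' own unpaired test 1 member passed, miR-487b (17 of 154, 11%). The groups did not separate without overlap for any member (2 of 154 miRs, 1.3%).

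The precision differed greatly among members. For miR-127 the difference was 0.03 with a 95% interval of −1.40 to 1.47, so a change of 1 log2 unit either way was not detectable in the unpaired comparison. The Tibial-SNI and Sural-SNI arrays of the same level and number differed by only −0.09 to 0.24, and with these pairs as a block the interval of miR-127 narrowed to −0.42 to 0.49. The block narrowed miR-379 to −0.45 to 0.43 in the same way. MiR-382 stayed wide, from −1.78 to 1.11 with the block, because its pairs ran from −1.70 to 1.63.

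MiR-487b (mmu-miR-487b) was the one member higher in the Tibial-SNI than in the Sural-SNI in 4 of 4 pairs. Its log2(fold change) in the Sural-SNI was 0.12 and 0.02 in the L3-DRG and −0.15 and −0.08 in the L4-DRG (replicate 1, then 2, here and below). In the Tibial-SNI it was 0.80 and 0.31 in the L3-DRG and 0.12 and 0.08 in the L4-DRG. The Sural-SNI values thus lay close to 0 and the Tibial-SNI values were all positive, but the groups overlapped. The difference was 0.35 (SE 0.26, adjusted p = 0.995 in limma). Its one-tailed p in limma was 0.110. It fell below the 0.09 of the study in the methods' unpaired test (0.0470; 17 of 154 miRs, 11%), in the exact permutation test (0.0429; 17 miRs, 11%) and in limma with the replicate block (0.0626; 34 miRs, 22.1%), with DRG level as a covariate (0.0685; 24 miRs, 15.6%) or with U87 alone as reference (0.0779; 22 miRs, 14.3%). The lowest adjusted p of miR-487b in these tests was 0.784, with the replicate block. The difference was 0.19 without the L3-DRG Tibial-SNI replicate 1 array.

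MiR-667 (mmu-miR-667) had the largest difference, 0.41 (SE 0.45, adjusted p = 0.995 in limma), which was 0.093 without the L4-DRG Sural-SNI replicate 2 array and 0.79 without the L3-DRG Sural-SNI replicate 2 array. Its log2(fold change) in the Sural-SNI was 0.29 and 1.21 in the L3-DRG and −0.36 and −0.88 in the L4-DRG. In the Tibial-SNI it was 0.38 and 0.80 in the L3-DRG and 0.27 and 0.44 in the L4-DRG. The L3-DRG of both injuries was therefore above Sham, whereas the L4-DRG was below Sham after the Sural-SNI and above it after the Tibial-SNI. The change of the injury difference from L3-DRG to L4-DRG was 1.13 (SE 1.51, adjusted p = 0.996 in limma), and with the replicate block the SE was 0.51 and the adjusted p 0.823. No member passed that test, adjusted or not (1 of 154 with unadjusted p under 0.05, 0.649%).

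**Figure D2:**
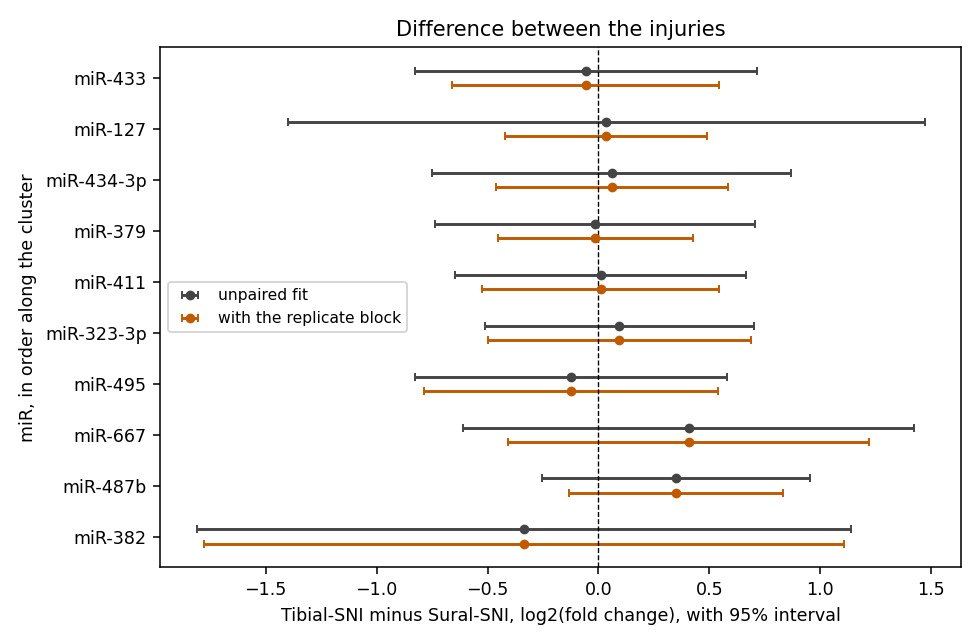
Tibial-SNI minus Sural-SNI in log2(fold change) (horizontal axis) with its 95% interval for each of the 10 miRs (vertical axis, genome order), from the unpaired limma fit (gray) and with the replicate block (orange). All 20 intervals include 0, and the block shortens that of miR-127 the most.

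Among the 15 other miRs of the cluster none passed an adjusted or unadjusted p of 0.05 in this comparison either. MiR-543 had the smallest p among those higher in the Tibial-SNI (0.98, SE 0.63) and miR-380-5p among those lower (−0.45, SE 0.40).

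Against Sham, no member passed the test after either injury. A limma fit of −ΔCt over the 12 arrays, adjusted for DRG level, gave 0 of 10 members with an unadjusted p under 0.05 after the Sural-SNI (0 of 154 miRs, 0%) and 0 after the Tibial-SNI (1 of 154, 0.649%). With the replicate block 0 members passed as well, although 10 of 154 miRs did after the Sural-SNI (6.49%) and 15 after the Tibial-SNI (9.74%). The median difference from Sham was 0.04 after the Sural-SNI (0.15 over all miRs) and 0.08 after the Tibial-SNI (0.23 over all miRs). The comparisons with Sham share the Sham arrays, so their values are given side by side and not as agreement.

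After the Tibial-SNI 4 members were above Sham in 4 of 4 arrays, as were 28 of the 154 miRs (18.2%) and 0 of the 15 other cluster miRs, and no member was below Sham in all 4 (5 of 154, 3.25%). MiR-323-3p had log2(fold change) values of 0.34 and 0.11 in the L3-DRG and 0.18 and 0.11 in the L4-DRG. MiR-495 had 0.25 and 0.19 in the L3-DRG and 0.52 and 0.24 in the L4-DRG. The others were miR-667 and miR-487b, whose values stand above. MiR-323-3p and miR-495 stayed within 0.11 to 0.52, while miR-487b and miR-667 reached 0.80 in 1 array each. In the fit over 12 arrays miR-495 turned to −0.067 without the L3-DRG Sham replicate 1 array and miR-667 to −0.11 without the L3-DRG Sham replicate 2 array, and miR-487b fell to 0.087 without the L3-DRG Tibial-SNI replicate 1 array. That fit has no term for replicate number, so leaving out 1 array makes the numbers unequal between the groups. The 3 values therefore also include the shift between replicate numbers, and do not show the weight of 1 array alone. A one-sample test of the 4 log2(fold change) values against 0 takes each SNI array as paired with the Sham array of its level and number. That pairing is an assumption, since what a replicate number stands for is not given. In this test 3 of the 4 members had an unadjusted p under 0.05, miR-667 (0.47 ± 0.23), miR-495 (0.30 ± 0.15) and miR-323-3p (0.19 ± 0.11). That test gave the same for 15 of the 154 miRs (9.74%), and after the Sural-SNI for 0 members and 8 of 154 miRs (5.19%). The adjusted p of the 3 members lay between 0.415 and 0.460. The median miR itself was 0.23 above Sham after the Tibial-SNI. When the mean of all miRs served as reference in place of the 3 assays, miR-323-3p stood at −0.05, miR-495 at 0.06, miR-487b at 0.09 and miR-667 at 0.23 relative to Sham.

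After the Sural-SNI no member was above Sham in 4 of 4 arrays (16 of 154 miRs, 10.4%) and none was below (7 of 154, 4.55%). MiR-495 had the largest mean, 0.42 ± 0.50, with values of 0.89 and 0.68 in the L3-DRG and 0.37 and −0.25 in the L4-DRG. In the limma fit of −ΔCt against Sham, the difference of miR-495 was 0.032 without the L3-DRG Sural-SNI replicate 2 array. It was 0.72 without the L3-DRG Sham replicate 2 array. Leaving out an array there makes the replicate numbers unequal between the groups, since that fit has no term for them. Both values therefore also include the shift between replicate numbers, and do not show how far the mean depends on a single array. MiR-382 was the most variable, with 1.13 and −1.38 in the L3-DRG and −0.30 and −0.65 in the L4-DRG. After the Tibial-SNI miR-382 had −0.05 and 0.25 in the L3-DRG and −2.0 and −0.76 in the L4-DRG. The replicates of the L3-DRG thus differed in sign for this miR after either injury. MiR-379, miR-411 and miR-433 stayed between −0.54 and 0.56 in all 8 SNI arrays, with means of 0.14, 0.03 and 0.06 after the Sural-SNI and 0.13, 0.04 and 0.00 after the Tibial-SNI.

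**Figure D3:**
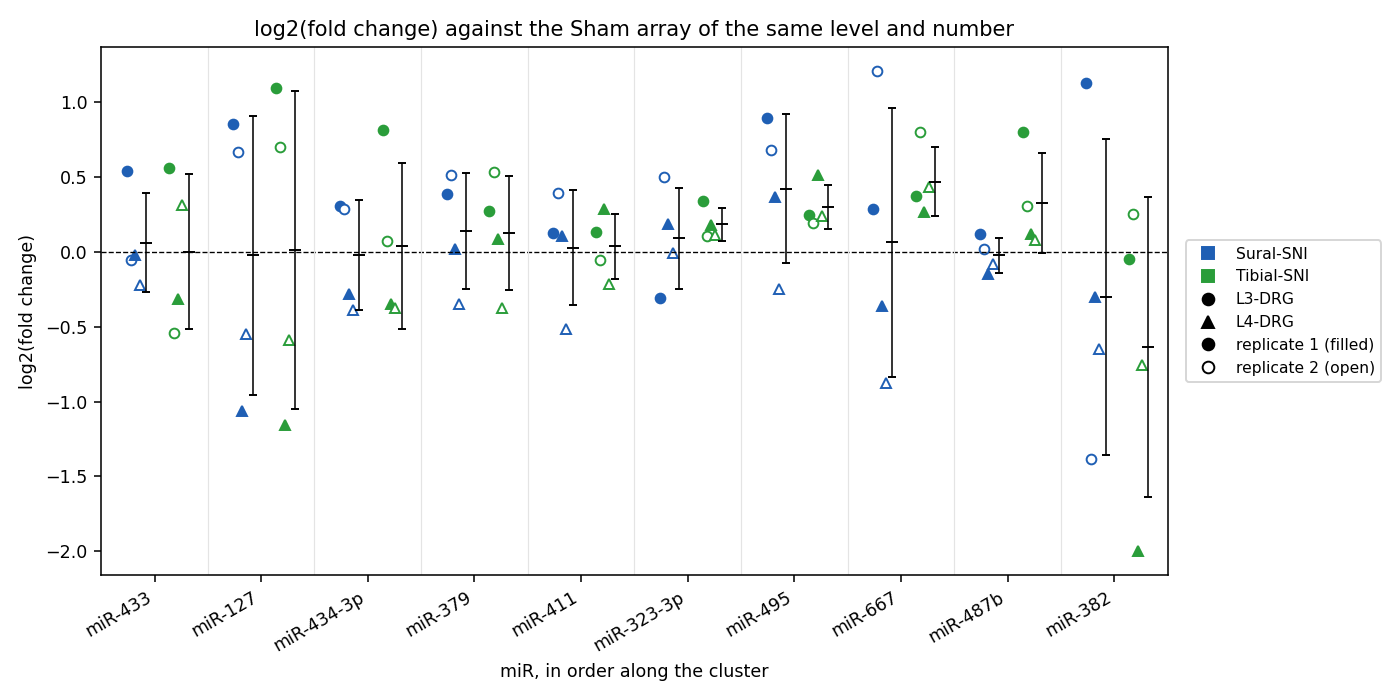
The log2(fold change) against Sham (vertical axis) of the 10 miRs (horizontal axis, genome order) in the 8 SNI arrays, with the mean and SD of each group of 4; color gives the injury, shape the DRG level and fill the replicate number, and the dashed line marks no change. For miR-127 and miR-434-3p the 4 circles (L3-DRG) lie above the line and the 4 triangles (L4-DRG) below it.

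The DRG level was compared because, per the study, neurons of the cut branches lie in the L4-DRG and not in the L3-DRG. Over all groups no member passed the test of L4-DRG against L3-DRG: 0 of 10 had an unadjusted p under 0.05 in limma with the injury as a covariate (3 of 154 miRs, 1.95%), and 0 with the replicate block (9 of 154, 5.84%). The lowest values were those of miR-487b, −0.43 (SE 0.26), and miR-434-3p, −0.38 (SE 0.25). For miR-487b the L4-DRG was lower in 5 of 6 pairs of the same group and number. The pair differences ran from −1.18 to 0.06, and each of those in replicate 2 was smaller in size than any in replicate 1. Of the other cluster miRs, miR-539 had an unadjusted p of 0.0325 (−0.64, SE 0.26, limma adjusted p = 0.987).

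MiR-127 was the member whose response to injury differed most between the ganglia. In Sham its −ΔCt was −4.33 and −2.31 in the L3-DRG and −3.69 and −1.47 in the L4-DRG. In the Sural-SNI it was −3.47 and −1.65 in the L3-DRG and −4.76 and −2.02 in the L4-DRG. In the Tibial-SNI it was −3.23 and −1.62 in the L3-DRG and −4.85 and −2.06 in the L4-DRG. Within each replicate number the L4-DRG was thus above the L3-DRG in Sham and below it after either injury. Its log2(fold change) ran from 0.67 to 1.10 over the 4 L3-DRG arrays and from −1.16 to −0.55 over the 4 L4-DRG arrays. MiR-434-3p, its neighbor in the RNA antisense to Rtl1, had values of 0.07 to 0.82 in the L3-DRG and −0.39 to −0.28 in the L4-DRG. The third of that group, miR-433, did not share the pattern, with −0.54 to 0.56 in the L3-DRG and −0.32 to 0.31 in the L4-DRG. Values above 0 in all 4 L3-DRG arrays and below 0 in all 4 L4-DRG arrays were found for 10 of the 154 miRs (6.49%), the reverse for 0, and neither for any of the 15 other cluster miRs. Of these, miR-376c and miR-376a missed the pattern only in the L4-DRG Sural-SNI replicate 1 array, at 0.10 and 0.29. The 4 values of a level rest on the same 2 Sham arrays and are not independent.

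The comparison of this difference was added after these values had been seen. Both SNI groups against Sham, L4-DRG minus L3-DRG, gave −1.67 for miR-127. In the unpaired limma fit the SE was 1.54 and the adjusted p 0.994, and 0 of 154 miRs passed (0%; 3 had an unadjusted p under 0.05). With DRG level and replicate number as a block, the SE was 0.30, the 95% interval −2.36 to −0.98 and the adjusted p 0.0355, and miR-127 was 1 of 2 miRs called (1.3%; the other, miR-34a, is no cluster miR). Without adjustment 2 members passed with the block, as did 17 of the 154 miRs (11%). The adjusted call of miR-127 was not stable: leaving out any single one of the 12 arrays raised the adjusted p above 0.05 (range 0.0768 to 0.320), with differences between −1.94 and −1.40. With MammU6, snoRNA135 or U87 alone as reference the adjusted p was 0.191, 0.990 and 0.0704. With the mean of all miRs as reference the difference was −1.27 and the adjusted p 0.169. The whole table moved in the same direction, with a median of −0.43 over all miRs and −0.45 over the members. The mean of all miRs as reference removes such a shift by construction. For miR-434-3p the difference was −0.72 (SE 0.31 with the block, unadjusted p = 0.0498, limma adjusted p = 0.423), and it was −0.32 with the mean of all miRs as reference. Of the other cluster miRs, miR-376c had −1.25 (adjusted p = 0.161 with the block) and miR-376a −1.35 (0.220). In the unpaired limma fit miR-376c had the lowest unadjusted p of all 154 miRs (0.0216), where the lowest of any member was 0.151. The remaining members ran from −0.91 (miR-382) to −0.04 (miR-323-3p).

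**Figure D4:**
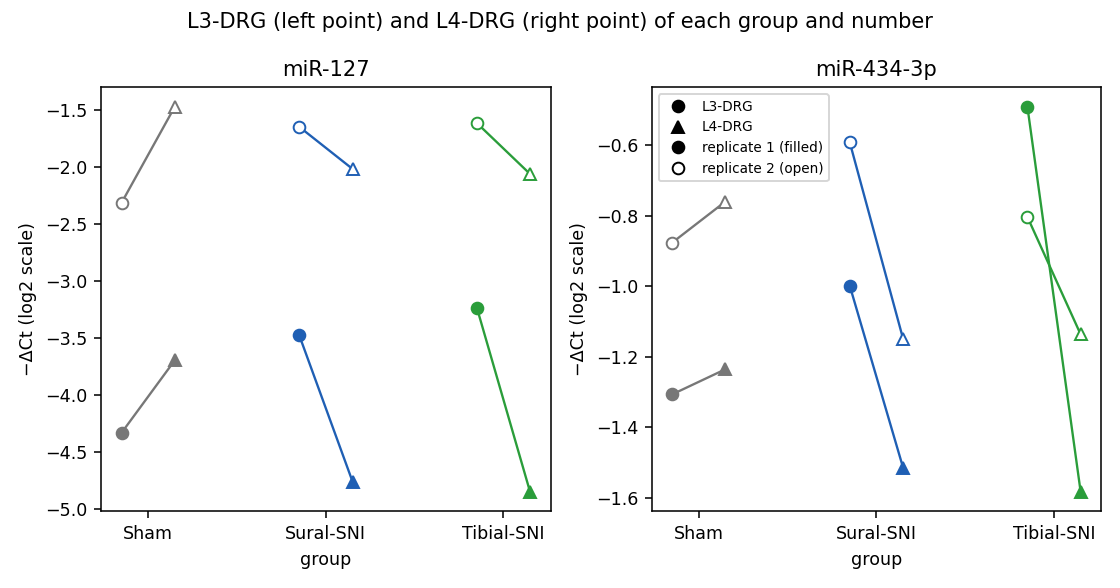
Level (−ΔCt, log2 scale, vertical axis; the 2 panels have different scales) of miR-127 and miR-434-3p in each group (horizontal axis), with lines joining the L3-DRG (circle, left) and the L4-DRG (triangle, right) arrays of the same number; filled symbols are replicate 1 and open symbols replicate 2. The lines rise in Sham and fall after both injuries for either miR.

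Since the members are cut from shared precursors, their Ct values were compared with each other directly, as the SD over the 12 arrays of the difference in Ct between 2 assays, which needs no reference assay. This is a description, since the points share the arrays. The 45 pairs of members had a median SD of 0.884 cycles, against 1.10 over all 11781 pairs of miRs and 1.04 over the 105 pairs of the other cluster miRs. The order of the members and the other cluster miRs was not firm: with miRs limited to a Ct of at most 35 the latter had a median of 0.765, and without the L4-DRG Sural-SNI replicate 1 array they had 0.881 and the members 0.927. The same Ct limit lowered the median over all pairs of miRs to 0.951, while that of the members stayed at 0.884. The tightest pairs were miR-323-3p with miR-434-3p (0.235), which lie in different precursors, and miR-379 with miR-495 (0.284), both in Mirg. The widest were miR-127 with miR-667 (2.13) and miR-127 with miR-433 (2.01), although miR-127 and miR-433 are close neighbors. Pairs from the same precursor had a median of 0.900 (24 pairs) and pairs across precursors one of 0.849 (21 pairs), an order that turned after centering within replicate number (0.466 and 0.492).

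After centering each difference within replicate number, the SD was lower for 39 of the 45 pairs of members, and the median over the members fell to 0.492 and that over all miRs to 0.696. Centered, miR-127 was closest to miR-434-3p among the members (0.315, second of 153 miRs), while miR-434-3p itself was closest to miR-487b (0.239). MiR-382 remained apart from every other member (0.745 to 1.00), and without it the median was 0.410. The miRs outside the cluster most like the mean of the members were miR-24 (SD 0.233), miR-204 (0.239) and miR-30e (0.242), where the median of 129 such miRs was 0.751. Within the cluster miR-134 came closest (0.204).

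**Figure D5:**
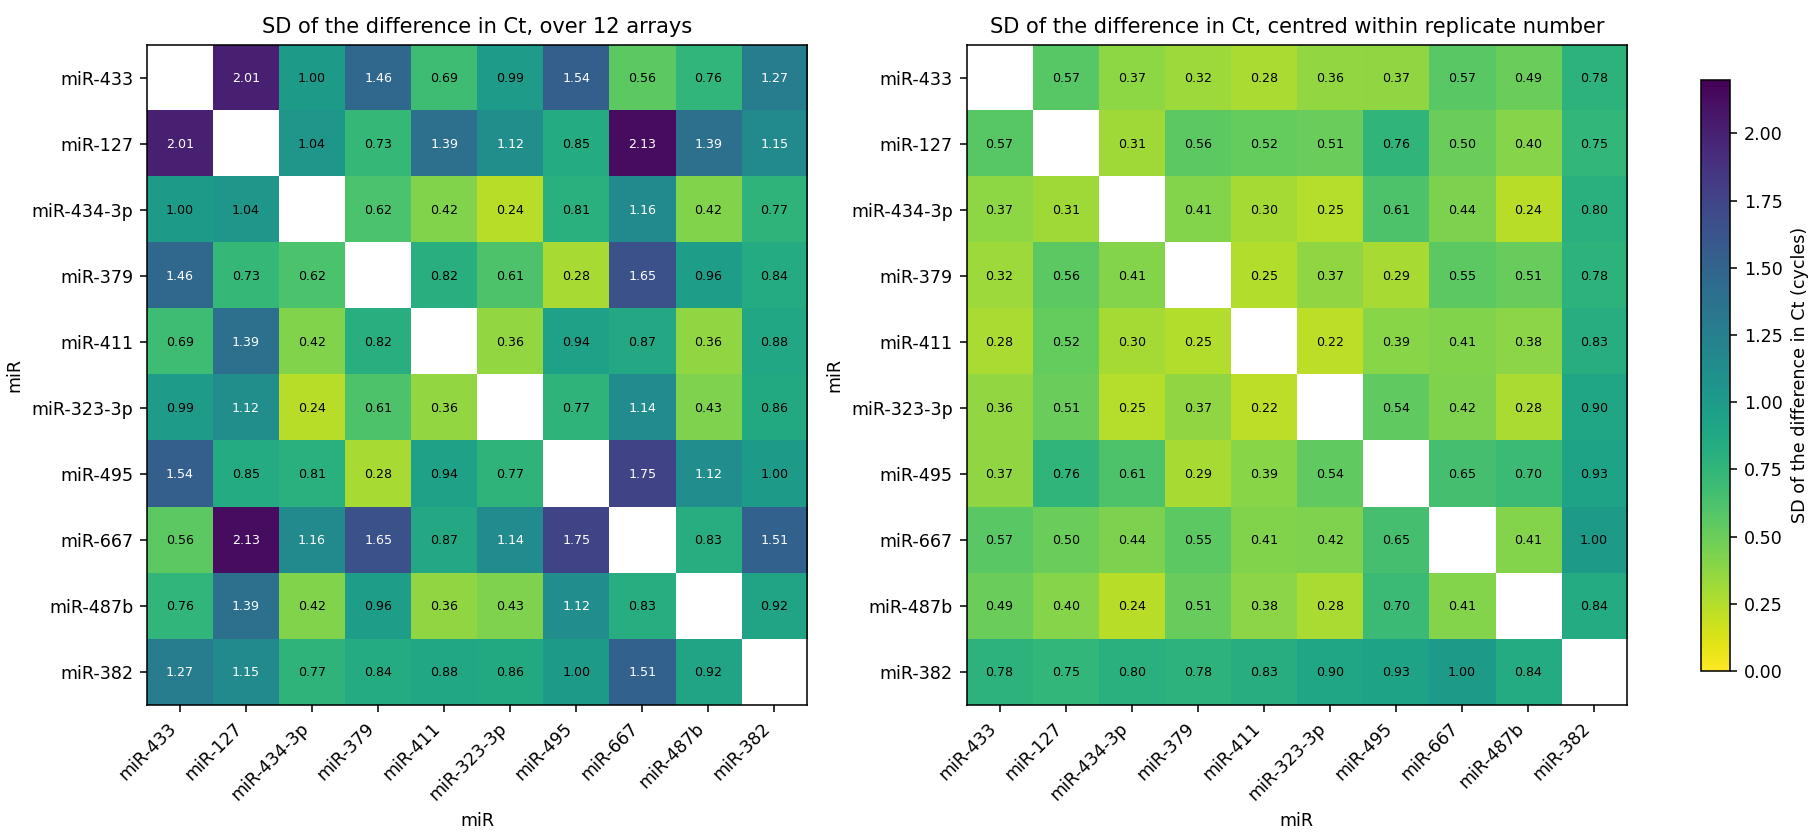
SD of the difference in Ct (cycles, color and printed value) between each pair of the 10 miRs, in genome order on both axes, over the 12 arrays as they are (left) and after centering within replicate number (right). The dark cells of miR-127 and miR-667 on the left lighten on the right, where the row of miR-382 is the darkest.

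As to the arrays as a whole, each had a mean miR Ct between 27.2 and 30.5, unequal between replicate numbers, with 29.2 for the members in replicate 1 and 27.4 in replicate 2. Of the reference assays snoRNA135 varied most (Ct 28.1 to 34.0, against 16.7 to 18.7 for MammU6 and 25.4 to 28.3 for U87). The tissue label was checked with 3 sensory neuron miRs, of which miR-182 and miR-183 were in the table, the higher of them ranking 5 in Sham. The best ranks of the other lists were 2 for endothelium, 7 for skeletal muscle, 8 for leukocytes, 23 for miR-9 of neurons, 46 for red blood cells and 101 for the glial miR-338-3p. The summed level of the skeletal muscle miRs (3 of 3 in the table) was 0.59 to 1.73 in Sham, −0.17 to 1.35 after the Sural-SNI and 0.01 to 4.41 after the Tibial-SNI, so that at least 1 Tibial-SNI array was rich in them. Its part in the results above was not tested.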

How the data were processed

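Total RNA of single DRG was measured by the authors on TaqMan rodent cards (Card A, version 2) for 40 cycles with no cut-off, and miRs detected in all 12 arrays were kept. The deposited Ct values are raw scores of cycle number. The authors also deposited fold changes, a linear ratio against Sham. These served only as an alternative: 75 of 80 member values were within 0.01 (log2) of those recomputed from Ct, and the other 5, all of miR-667, were off by 1.17 to 2.95. Ct holds no molecule count, so precision rests on the number of arrays.

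Here −ΔCt used the mean Ct of MammU6 (4 wells averaged), snoRNA135 and U87. Groups, DRG levels and replicate numbers came from the sample labels. All 154 miRs were fitted with limma 3.58.1 (lmFit, eBayes) in R 4.3.3, two-sided, with Benjamini-Hochberg adjustment. Tibial-SNI against Sural-SNI used the 8 log2(fold change) values, unpaired as in the methods. Comparisons with Sham (DRG level as covariate) and of L4-DRG with L3-DRG (injury as covariate) used −ΔCt of 12 arrays. The fits were checked for bias on simulated data (20 draws, 30 miRs changed) with a planted difference larger than any found for a member. That check does not show what the fits can detect at the sizes found here. Arrays of the same level and number in different groups deviated together from their group means (r 0.46 to 0.81 in 12 pairs). Between numbers at the same level r ran from −0.70 to −0.56, and centering on the group mean pushes it below 0. Arrays of different levels were not compared, so these values do not show pairing by level. A block of level and number (4 levels, or for L4-DRG against L3-DRG injury and number, 6 levels) was the paired fit. Alternatives were single references, the mean of all miRs, a Ct limit of 35, other tests, the deposited ratios, and leaving out each array.

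The members and lists were chosen with earlier results of these data known. Named were all members, the other cluster miRs of lowest limma p (at most 2 each way), and the 3 outside miRs closest to the members' mean Ct. The split of the members between Mirg and the RNA antisense to Rtl1 is background knowledge. The single-miR qPCR and other days were not analysed here.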

Additional observations from a re-analysis of the deposited data

Results flagged for a closer look

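For miR-127 the response to injury differed between ganglia, with a difference of −1.67 (both SNI groups against Sham, L4-DRG minus L3-DRG), called only with the replicate block and not with any single array left out or with any other reference tried. For miR-434-3p it was −0.72 (−0.32 with the mean of all miRs as reference), with all 4 L3-DRG values above 0 and all 4 L4-DRG values below 0 in both miRs.

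In 50 sets of 4 arrays (each member's level in each group and log2(fold change) in each injury), 5 held an array far from the other 3. Chance alone marks about 1 in 20 such sets, but these sets are not independent. The log2(fold change) derives from the levels, and arrays of the same level and number deviated together. The count of 5 is therefore no test against chance. In 3 of the 5 sets the far array was the L3-DRG replicate 1 array of miR-487b, which was the highest in every group: −4.46 in Sham, −4.34 in the Sural-SNI and −3.66 in the Tibial-SNI. The others were miR-323-3p in the L4-DRG Sham replicate 1 array, the lowest of its group at −2.23, and the log2(fold change) of miR-495 in the L4-DRG Tibial-SNI replicate 1 array, the highest of its group at 0.52.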

How the results depend on the processing

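In limma, no member passed an adjusted p of 0.05 for any of the 5 comparisons planned, under any alternative run. Signs of the uncalled differences, most of them near 0, turned with the reference assay. For Tibial-SNI minus Sural-SNI, the sign changed with MammU6 alone, miR-127 (−0.12), miR-323-3p (−0.060), miR-411 (−0.14) and miR-434-3p (−0.094); with snoRNA135 alone, miR-379 (0.049) and miR-433 (0.0060); with U87 alone, miR-379 (0.076) and miR-433 (0.033); with the mean of all miRs, miR-127 (−0.047), miR-411 (−0.072) and miR-434-3p (−0.021). For Sural-SNI minus Sham, the sign changed with MammU6 alone, miR-127 (0.044), miR-434-3p (0.047) and miR-487b (0.044); with snoRNA135 alone, miR-411 (−0.041), miR-433 (−0.010) and miR-667 (−0.0062); with the mean of all miRs, miR-323-3p (−0.063), miR-379 (−0.012), miR-411 (−0.13), miR-433 (−0.094) and miR-667 (−0.090). For Tibial-SNI minus Sham, the sign changed with MammU6 alone, miR-127 (−0.076), miR-411 (−0.050), miR-433 (−0.085) and miR-434-3p (−0.047); with snoRNA135 alone, miR-433 (−0.0040); with the mean of all miRs, miR-127 (−0.22), miR-323-3p (−0.050), miR-379 (−0.11), miR-411 (−0.20), miR-433 (−0.23) and miR-434-3p (−0.19). For Tibial-SNI minus Sham, the median of the members was −0.15 with the mean of all miRs. Of all miRs, the 1 called between the injuries became 0 with each other reference, the Ct limit of 35, the replicate block, the mean Sham term, the exact permutation test and each array left out (0 to 0). Members under the one-tailed 0.09 numbered 1 (miR-487b) instead of 0 with U87 alone, the replicate block, the DRG level as a covariate, the methods' test and the exact permutation test, and 0 to 1 with an array left out. In the one-sample test, 1 miR of all was called for each injury against Sham, none of them a member, and 3 members had an unadjusted p under 0.05 for the Tibial-SNI. For the difference between ganglia, without the block 0 members and 0 of all miRs were called, and with it 2 (unadjusted) and 2 (adjusted). With the block and any other reference 1 member (unadjusted) and 0 of all miRs (adjusted) passed, and with an array left out 1 to 2 and 0 to 2. The median of the members was −0.052 with the mean of all miRs, with and without the block. With each array left out in turn, differences crossed 0 for the following members, given as lowest and highest value. For Tibial-SNI minus Sural-SNI, these were miR-323-3p −0.092 to 0.26, miR-379 −0.18 to 0.15, miR-382 −0.99 to 0.14, miR-433 −0.25 to 0.12, miR-495 −0.35 to 0.051, miR-127 −0.33 to 0.42, miR-434-3p −0.20 to 0.20 and miR-411 −0.17 to 0.16. For Sural-SNI minus Sham, these were miR-127 −0.61 to 0.60, miR-411 −0.073 to 0.17, miR-433 −0.26 to 0.47, miR-434-3p −0.19 to 0.16, miR-667 −0.52 to 0.56, miR-323-3p −0.051 to 0.24, miR-379 −0.16 to 0.47, miR-382 −0.57 to 0.064 and miR-487b −0.17 to 0.10. For Tibial-SNI minus Sham, these were miR-411 −0.064 to 0.17, miR-433 −0.33 to 0.38, miR-434-3p −0.13 to 0.22, miR-127 −0.57 to 0.66, miR-379 −0.18 to 0.46, miR-495 −0.067 to 0.68 and miR-667 −0.11 to 0.93. The median for the Tibial-SNI against Sham ran from 0.0071 to 0.30 in that way. The fits against Sham had no term for replicate number here, so leaving out 1 array made the numbers unequal between the groups. The ranges against Sham therefore also include the shift between replicate numbers. The causes were not tested. For the members the replicate block changed no other adjusted or unadjusted call. Of the other cluster miRs it added miR-543 (L4-DRG against L3-DRG) and miR-376a (difference between ganglia) at an unadjusted p under 0.05, and it moved those under the one-tailed 0.09 between the injuries from 1 to 4. With 4 arrays a group and no block, the 95% intervals of the members reached 1.47 to either side between the injuries and 2.07 against Sham. With the replicate block they reached 1.44 between the injuries and 1.18 against Sham.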
